A study of Arabidopsis thaliana with 6 samples.

Results

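The transcripts of 7 Aux/IAA genes of Arabidopsis thaliana were followed over 6 Affymetrix ATH1 arrays of auxin-treated seedlings. They are IAA18 (AT1G51950), IAA20 (AT2G46990), IAA29 (AT4G32280), IAA30 (AT3G62100), IAA31 (AT3G17600), IAA33 (AT5G57420) and IAA34 (AT1G15050). Each was included because it has a probe set that the platform annotation pairs with it and with no other gene. There was 1 such probe set per gene, so 7 of the 22746 probe sets tested are described here. No measured value entered that rule, but the members were chosen with earlier results of these data known. Counts of called members beside the share of all probe sets are therefore a description.

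Aux/IAA proteins hold auxin response genes silent by binding auxin response factors, the DNA-binding activators of the pathway, and by recruiting corepressors of the TOPLESS family. Auxin joins the typical Aux/IAA protein to a TIR1/AFB receptor, which leads to its breakdown and frees the response factor. Many Aux/IAA genes are themselves switched on by auxin, so that the pathway makes its own repressors. IAA20, IAA30, IAA31, IAA33 and IAA34 are known as atypical members whose proteins lack the conserved degron through which the receptors act, while IAA18 carries one.

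All plants were 9-day-old seedlings from plates, moved to liquid medium and given 50 µM of the auxin IAA (indole-3-acetic acid) for 1 h. The control group was 2 cultures of the line pRPS5A-Myc-GR-bdl given IAA without DEX. In that line the promoter of RPS5A, a ribosomal protein gene active in dividing cells, drives a Myc-tagged fusion of the glucocorticoid receptor with bdl, the stabilised form of the Aux/IAA repressor BODENLOS (IAA12). A second group was 2 cultures of the same line given 10 µM dexamethasone (DEX) for 1 h before the auxin, which lets such a fusion enter the nucleus. The third group was 2 cultures of mp-B4149 seedlings given the same DEX and IAA. These are mutant for MONOPTEROS (MP, ARF5), a response factor bound by BODENLOS. Such mutants are known to make no root in the embryo. Every group received auxin, so the values say nothing of induction by auxin itself. No group held seedlings that lack both the fusion and the mp mutation. The effect of DEX alone in the GR-bdl line thus cannot be told apart from that of the fusion protein. The mp labels name no fusion, so its presence differs along with the mutation in both comparisons with mp. Line and treatment both differ between mp and the controls, and the labels used here do not name the accession of either line. No probe set was paired with MP or BDL in the annotation used here, and neither gene could serve as a check of the labels.

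The 6 arrays had median intensities from 26.1 to 27.1. Between the 2 arrays of a group, the SD of a probe set had a median of 0.073 in the controls, 0.108 in GR-bdl with DEX and 0.099 in mp, on the log2 scale. Between 43.1% and 44.1% of the probe sets of an array lay below a log2 intensity of 4, which is called the low end below. There gcRMA, the method behind the deposited values, leaves little signal above its background estimate, and a further decrease can hardly be seen. Between mp and the controls 41.5% of the 22746 probe sets were called, 3989 of them lower in mp. In that comparison, of 4 measured root markers, EXPA7, EXPA18 and JKD were lower in mp and the root beta-glucosidase gene PYK10 was not called. Their summed intensity was 9500 to 9800 in the controls, 9400 to 9860 in GR-bdl with DEX and 9780 to 10400 in mp, most of it from PYK10. Of 4 measured green tissue markers, 1 was called in mp against the controls (SBPASE, higher by 0.31 ± 0.11), beside the same 41.5%. The vascular markers LHW and PHV were not called in any comparison, and the shoot apex gene CLV3 lay at the low end in all groups.

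**Figure D1:**
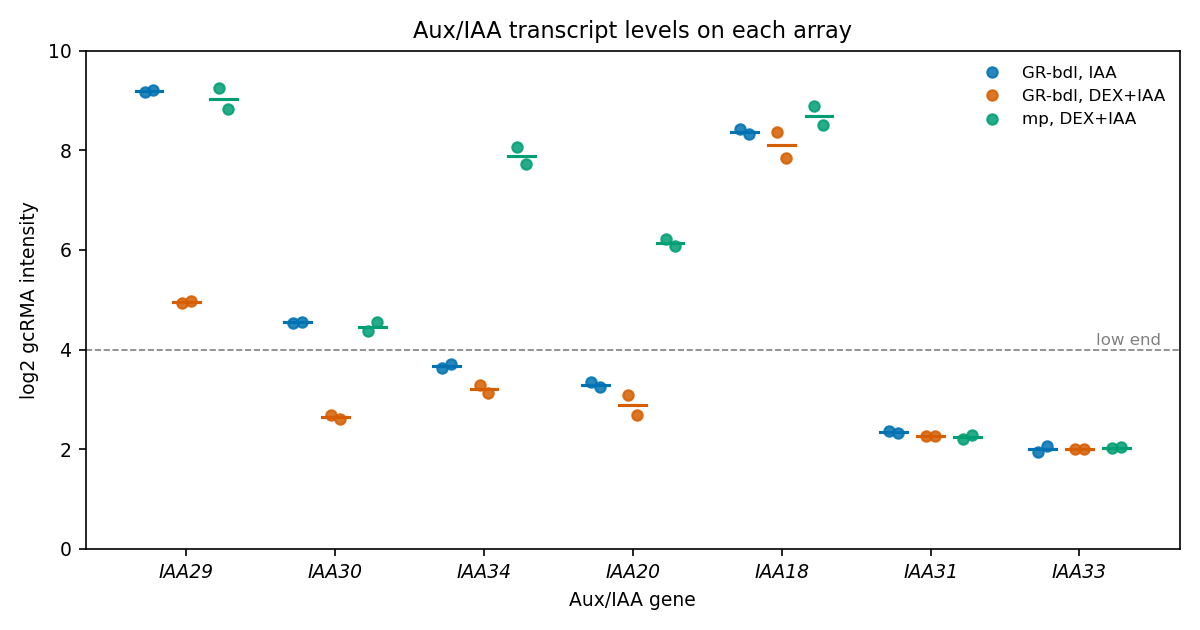
Log2 gcRMA intensity of the 7 Aux/IAA genes on each of the 6 arrays. Points are arrays, short lines are group means of 2 arrays, and the dashed line marks the low end at 4. Levels of different genes come from different probe sets and are not comparable. IAA29 and IAA30 lie low in GR-bdl with DEX, IAA34 and IAA20 lie high in mp, and IAA31 and IAA33 stay near 2 in all groups.

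The first comparison asked how Aux/IAA transcripts responded to a release of the fusion protein ahead of the auxin. IAA29 and IAA30 fell, 2 of the 7 against 1.64% of all probe sets called lower and 2.27% called in either direction, and none of the 7 rose. A call here is an adjusted p under 0.05 in the limma fit across all probe sets. IAA29, which in light and temperature responses is known as a target of the PIF factors of elongation growth, stood at 9.18 and 9.21 on the log2 scale in the control arrays and at 4.94 and 4.98 in the arrays with DEX. Both DEX arrays thus lay far below both control arrays, with hardly any spread within a group. The decrease was 4.24 ± 0.15 (SE, 2 arrays a group) on the log2 scale, an 18.9-fold lower intensity, with a 95% interval from 14.9 to 23.8-fold and a limma adjusted p of 5.4e-06. Only 5 of the 22746 probe sets had a lower difference. In whole seedlings, fewer cells with a transcript and less of it per cell cannot be told apart.

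IAA30, whose product has been linked with that of IAA20 to vascular patterning in the root, went from 4.53 and 4.56 in the controls to 2.68 and 2.60 with DEX. The groups did not overlap, and the gene ended at the low end of the range. It fell by 1.90 ± 0.11 on the log2 scale (95% interval −2.17 to −1.64), with a limma adjusted p of 6.99e-05, and 83 probe sets had a lower difference. The fold is uncertain because of that low end: with 16 added to every intensity, which damps low values, the difference was −0.82 and was still called.

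The other 5 members were not called. IAA34, which with IAA32 has a role in the apical hook, stood at 3.64 and 3.71 in the controls and at 3.28 and 3.13 with DEX. Its groups did not overlap, and the difference was −0.47 ± 0.14, with an unadjusted p of 0.00806 and a limma adjusted p of 0.172. IAA20 stood at 3.35 and 3.24 in the controls and at 3.08 and 2.69 with DEX, a difference of −0.41 ± 0.15, with an unadjusted p of 0.0238 and a limma adjusted p of 0.291. Both were at the low end before DEX was given, which limits how far a decrease can show. IAA18, known from dominant mutants with defects in the embryonic root and in lateral roots, was well above the low end, and its arrays overlapped between groups. Its values were 8.42 and 8.33 in the controls and 8.37 and 7.84 with DEX, a difference of −0.27 ± 0.19 with a 95% interval from −0.71 to 0.18. That interval leaves room for a change of up to 1.64-fold downwards and not for one of the size seen in IAA29. IAA31 and IAA33, at the low end in all groups, differed by −0.09 ± 0.11 and 0.01 ± 0.11.

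The arrays of the 2 groups did not overlap for 5 of the 7, against 44.1% of all probe sets. The median difference of the members was −0.41, beside 0.045 over all probe sets. Both calls held with each control or DEX array left out, where the lone array left in a group was assumed to vary like the other groups, and in the 4 arrays alone, the same fit as without either mp array. The number of calls over all probe sets went from 517 to 275 and 240 without control array 1 and control array 2.

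**Figure D2:**
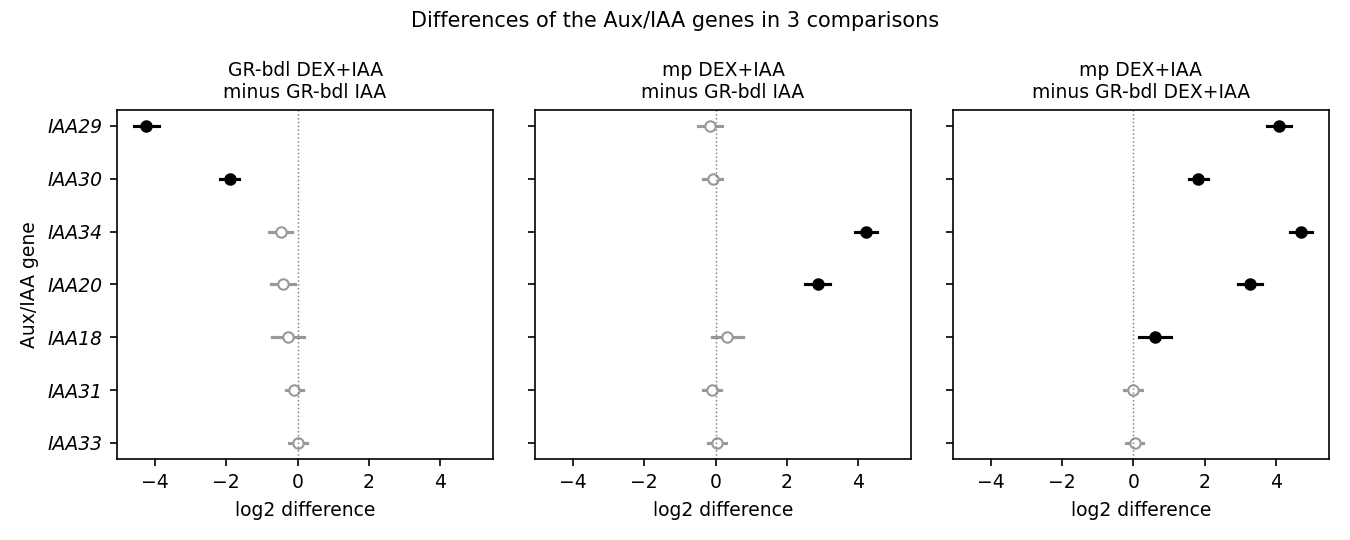
Log2 differences of the 7 Aux/IAA genes in the 3 comparisons. Points are limma estimates, bars are 95% intervals, filled black points passed a limma adjusted p of 0.05 and open grey points did not. IAA29 and IAA30 differ from 0 on the left and right and lie near 0 in the middle, while IAA34 and IAA20 lie far above 0 in the middle and on the right.

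The second comparison set mp seedlings, given DEX and IAA, against GR-bdl seedlings given IAA alone. Here the genes that moved were other members: IAA34 and IAA20 rose, and IAA29 and IAA30 were not called. These 2 of 7 stand against 41.5% of all probe sets called and 23.9% called higher, so the count itself is near the background. IAA34 stood at 3.64 and 3.71 in the controls and at 8.06 and 7.73 in mp. It left the low end on both mp arrays. The increase was 4.22 ± 0.14 on the log2 scale, 18.6-fold, with a 95% interval from 15.0 to 23.1-fold and a limma adjusted p of 1.31e-07, and 68 probe sets had a higher difference. IAA20 stood at 3.35 and 3.24 in the controls and at 6.23 and 6.07 in mp, again with no overlap. It rose by 2.86 ± 0.15 (95% interval 2.51 to 3.2, limma adjusted p = 1.86e-06), and 223 probe sets had a higher difference. Since both genes started at the low end, their folds depend on how low values are treated, and with 16 added to every intensity the increases were 3.14 and 1.75, both called. Of the root markers measured, EXPA7, EXPA18 and JKD differed between the same groups by −3.80 ± 0.22, −2.89 ± 0.25 and −1.52 ± 0.18. PYK10 differed by 0.1 ± 0.11 and was not called. The part of these markers in the 2 increases was not tested.

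IAA29 in mp stood at 9.25 and 8.83, on either side of the control arrays at 9.18 and 9.21. The difference was −0.16 ± 0.15, with a 95% interval from −0.50 to 0.18 and a limma adjusted p of 0.416. IAA30 in mp stood at 4.37 and 4.55 against 4.53 and 4.56, a difference of −0.08 ± 0.11 with an interval from −0.35 to 0.18. For both genes the intervals cover changes of up to about 1.41-fold (IAA29) and 1.27-fold (IAA30) downwards, which is far less than the decreases after DEX. Their calls depend on the centring. Over all probe sets mp lay 0.118 above the controls at the median and the hybridization controls, RNA added to each sample before hybridization, lay 0.334 above. After the arrays were centred on those controls, IAA29, IAA30 and IAA31 were called lower, by 0.49, 0.42 and 0.43, in a setting that lowers every probe set alike and gave 2556 probe sets higher and 7383 lower in place of 5441 and 3989.

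IAA18 stood at 8.89 and 8.51 in mp against 8.42 and 8.33, with no overlap, but was not called (0.33 ± 0.19, limma adjusted p = 0.206). IAA31, linked to gravity response when overexpressed, and IAA33, with a role in root stem cell identity, stayed at the low end and differed by −0.10 ± 0.11 and 0.03 ± 0.11. The arrays did not overlap for 4 of 7, against 76.7% of all probe sets. The median of the members was 0.03, beside 0.118 over all probe sets.

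**Figure D3:**
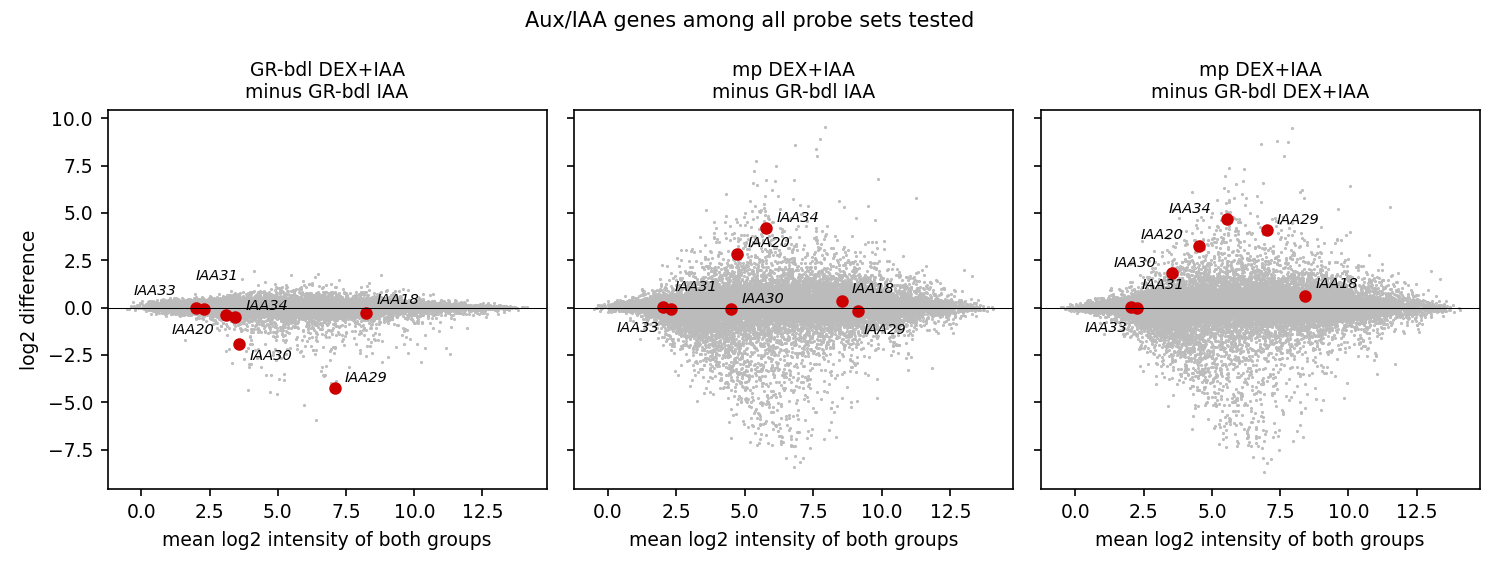
Log2 difference against the mean log2 intensity of both groups for all 22746 probe sets (grey) and the 7 Aux/IAA genes (red), in the 3 comparisons. IAA29 lies at the lower edge after DEX with 5 probe sets below it, and IAA34 lies at the upper edge in mp with 68 above it against the controls and 47 above it against GR-bdl with DEX.

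The third comparison set the 2 groups that had both DEX and IAA, mp and GR-bdl, against each other. It shares its arrays with the other 2 comparisons and is their difference, so its values are given beside them and not as further evidence. Of the 7 members 5 were called, all higher in mp, against 40.1% of all probe sets called and 22.1% called higher. Centred on the hybridization controls, 2848 probe sets were higher and 6736 lower in place of 5031 and 4083. IAA34, IAA29, IAA20 and IAA30 were higher in mp by 4.69 ± 0.14, 4.08 ± 0.15, 3.27 ± 0.15 and 1.82 ± 0.11, with limma adjusted p values from 7.99e-08 to 5.62e-06. None of the 4 overlapped between the groups. IAA34, IAA20 and IAA30 were at the low end in GR-bdl with DEX, and with 16 added to every intensity their differences were 3.33, 1.89 and 0.77, all called. For IAA29 and IAA30 the gap came from the low level in GR-bdl with DEX, 4.96 ± 0.02 and 2.64 ± 0.06 (SD, n = 2), set against 9.04 ± 0.30 and 4.46 ± 0.13 in mp. For IAA34 and IAA20 it came from the high level in mp, 7.90 ± 0.23 and 6.15 ± 0.12, set against 3.2 ± 0.10 and 2.88 ± 0.27.

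IAA18 was also called higher, at 8.89 and 8.51 in mp against 8.37 and 7.84 in GR-bdl with DEX. The difference was 0.60 ± 0.19, a 1.51-fold change with a 95% interval from 1.11 to 2.05-fold and a limma adjusted p of 0.0387. That call was lost without DEX array 2 (0.33, limma adjusted p = 0.209), without mp array 1 (0.40, 0.217) and in a fit of the 4 arrays alone (0.60, 0.0546), which leaving out either control array repeats exactly. It was lost too after centring on the hybridization controls (0.33, 0.148) and with 16 added to every intensity (0.107). IAA31 and IAA33 differed by −0.01 ± 0.11 and 0.03 ± 0.11. Arrays did not overlap for 6 of 7, against 68.5%, and the median of the members was 1.82, beside 0.069 over all probe sets.

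Over the 3 groups the order of levels differed between members. IAA29 and IAA30 were lowest in GR-bdl with DEX, and the controls and mp above it were not told apart at an adjusted p of 0.05, except after centring on the hybridization controls, when mp was lower. IAA34 and IAA20 were highest in mp, and the controls and GR-bdl with DEX below it were not told apart at an adjusted p of 0.05. IAA18 was highest in mp and lowest in GR-bdl with DEX, with the controls between them and not separated from either. IAA31 and IAA33 showed no order, with group means that spanned 0.10 and 0.03. Profiles were also compared by the root mean square difference of log2 values over the 6 arrays, each profile first centred on its own mean. This was 0.66 between IAA34 and IAA20 and 1.1 between IAA29 and IAA30. The measure weighs size as well as shape, and IAA30 was closer to IAA18 (0.726), IAA31 (0.862) and IAA33 (0.876), whose profiles are flatter, than to IAA29. IAA20 and IAA30, both linked to vascular patterning, differed by 1.21. The value for IAA31 and IAA33 was 0.0751, a likeness of 2 flat profiles at the low end.

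The genes closest in profile were sought among all probe sets paired with 1 gene, for the 4 members whose group means spanned at least 1. The closest to IAA30 were GH3.3, which encodes an auxin-conjugating enzyme, HAT2, a homeodomain factor gene, and AT5G61590, with root mean square differences of 0.102, 0.147 and 0.186. GH3.3 stood at 12.18 and 12.24 in the controls, 10.15 and 10.03 in GR-bdl with DEX and 12.06 and 12.09 in mp. It was picked for this likeness, so its similar steps are no separate support for those of IAA30. Its level was far from the low end. No profile came as near to IAA29: the closest were AT1G66940 (0.546), AT5G41400 (0.57) and AT1G32190 (0.784). AT1G66940 fell less after DEX, by 3.12 against 4.24, while AT5G41400 and AT1G32190 were higher in mp than in the controls by 1.16 and 1.18.

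IAA34 was closest to AT5G05420 (0.198), CCS (0.219), which encodes the copper chaperone of superoxide dismutase, and AT5G19100 (0.235). CCS stood at 6.00 and 5.73 in the controls, 5.63 and 5.77 with DEX and 10.13 and 10.22 in mp. It was picked for this likeness, so its rise is no separate support for that of IAA34. IAA20 was closest to AT5G02890 (0.14), AT5G02940 (0.142) and AT5G01670 (0.178). AT5G02890 stood at 7.12 and 7.0 in the controls, 6.81 and 6.31 with DEX and 10.25 and 10.04 in mp. These likenesses rest on 6 arrays in 3 groups and are given as a description.

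**Figure D4:**
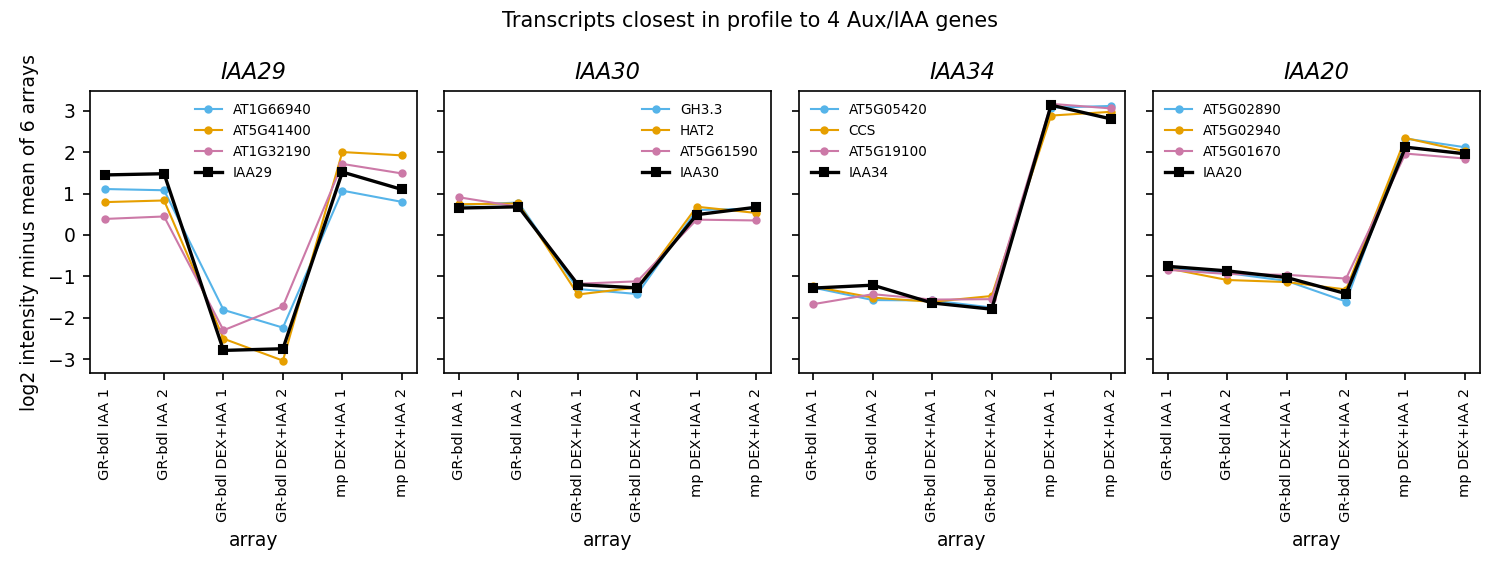
Log2 intensity minus the mean of the 6 arrays for IAA29, IAA30, IAA34 and IAA20 (black squares) and the 3 transcripts closest to each (coloured points), array by array. The transcripts near IAA30, IAA34 and IAA20 follow them within a root mean square difference of 0.235, while those near IAA29 differ from it by 0.546 or more.

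Other genes of the auxin pathway were measured in part. None of 22 other listed Aux/IAA genes, 23 response factor genes, 17 receptor and ubiquitin ligase genes or 7 corepressor genes had a probe set paired with them by the matching used here, so they were not analysed here. Of 20 listed genes of auxin conjugation and breakdown, 7 were measured. After DEX 3 of them fell (median −0.41), where 1.64% of all probe sets were called lower. In mp against the controls 3 rose and 2 fell (median −0.07), where 41.5% were called, and in mp against GR-bdl with DEX 4 were higher (median 0.63), where 22.1% were called higher, so the counts in mp say little by themselves. GH3.3, named above for its likeness to IAA30, fell by 2.12 ± 0.11 after DEX and differed by −0.14 ± 0.11 between mp and the controls. GH3.17 followed the pattern of IAA34 and IAA20: it differed by −0.41 ± 0.17 after DEX, without a call, and rose by 3.49 ± 0.17 in mp. Like them it was at the low end in the controls (3.91) and with DEX (3.5), which limits how far a decrease can show. GH3.1 and GH3.5 fell after DEX (−2.67 ± 0.13 and −2.42 ± 0.30) and were also lower in mp than in the controls (−2.32 ± 0.13 and −0.98 ± 0.30). Against GR-bdl with DEX, GH3.5 was higher in mp by 1.44 ± 0.30, and GH3.1 was not called (0.35 ± 0.13). GH3.1 was at the low end in both of these groups (2.89 with DEX and 3.24 in mp). The DEX arrays of GH3.5 lay apart, at 6.71 and 7.81. UGT74D1, which encodes a glucosyltransferase for auxins, was higher in mp by 1.19 ± 0.13 against the controls and by 0.63 ± 0.13 against GR-bdl with DEX.

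Of 21 listed auxin synthesis genes 4 were measured, the flavin monooxygenase genes YUC2, YUC4, YUC6 and YUC11, and none was called after DEX. YUC4 was called higher in mp than in the controls (0.39 ± 0.13) and YUC6 lower in mp than in GR-bdl with DEX (−0.44 ± 0.13), both within the low end. Of 20 auxin transport genes 2 were measured. WAG2, which encodes a kinase that acts on auxin efflux carriers, fell by 1.15 ± 0.21 after DEX, where its arrays stood at 5.7 and 6.42. It was higher in mp than in GR-bdl with DEX by 0.7 ± 0.21 and was not called against the controls (−0.45 ± 0.21). PID2, at the low end in all groups, was not called in any comparison. Of 20 genes linked to shade and PIF factors 1 was measured, HAT2, also named above for its likeness to IAA30. It fell by 2.11 ± 0.12 after DEX and differed by −0.15 ± 0.12 between mp and the controls.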

How the data were processed

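RNA of 6 liquid cultures, 2 per group, was hybridized to Affymetrix ATH1 arrays. The deposited intensity values were made with gcRMA, per the submitters' processing notes, which state no version. They are on a linear scale and were normalized between arrays by the authors. Groups came from the source labels and the design text, since the mp titles leave out DEX and the treatment text names it for every sample. Each array is a separate culture, per the design text.

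Log2 was taken with no pseudocount, and 64 control probe sets were left out. Of 22746 probe sets, 13513 were paired with 1 gene. Names came from RefSeq (TAIR10.1), as did gene order, taken from chromosome and start position. limma 3.58.1 in R 4.3.3 fitted a mean per group to all 6 arrays (3 residual and 5.12 prior degrees of freedom), with Benjamini-Hochberg adjustment over all probe sets and a threshold of 0.05. The fit was also run on simulated data as a check of the code. There the noise was independent and normal and few probe sets changed, so that run is no support for the calls here. Exact permutation of 2 against 2 arrays gives no p below 0.333 and was not used. Errors of differences are limma SE, intervals are 95%, and the number of arrays limits the precision.

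All 7 members were named. The 3 closest profiles and up to 4 called genes per list were named by rule. Members and lists were chosen with earlier results of these data known. Promoter and protein sequences were not used here. Alternatives covered normalization, centring, an offset, filters, adjustment, variance models, the arrays fitted, the replicate block and each array left out. Same-numbered arrays correlated by −0.04 to 0.098 in their deviations from group means, so the numbers were not taken to pair cultures.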

Additional observations from a re-analysis of the deposited data

How the results depend on the processing

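Of 342 member differences recomputed under 17 alternatives, 318 kept direction and call. Direction could not change under the filters, the adjustment, the variance models, the 4 arrays alone or the replicate block. These settings keep the same group means, and so does leaving out an array outside the comparison. The calls of IAA29 and IAA30 after DEX and of IAA34 and IAA20 in mp held wherever the gene was tested. IAA34 and IAA20 passed both filters only through mp, and IAA30 passed the filter on group means only through the controls and mp. The filter settings are therefore no support for the calls of IAA34, IAA20 and IAA30. IAA30 and its call were left out by the filter on a mean of at least 4 over all arrays, which left 1 member called after DEX, and both filters left out other members. IAA18 lost its call in the settings given above, 7 in all, of which 3 are 1 and the same fit. Leaving out an array of the group outside a comparison gives the fit of the 4 arrays alone, and leaving out one of a compared group leaves a lone array that is assumed to vary like the other groups. Without 1 array in turn, members called stayed at 2, 2 and 4 to 5 in the 3 comparisons, and all probe sets called ranged from 240 to 437, 6601 to 9943 and 7565 to 8489. Members called in mp against the controls numbered 5 after centring on the hybridization controls, which lowers every probe set in mp alike. Which centring is right was not tested. All probe sets called after DEX numbered 231 with the offset of 16, for which the cause was not tested. Adjusted over probe sets with 1 gene, calls were 189, 5014 and 4856, with fewer probe sets tested.

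Signs turned only for differences that were not called. IAA33 after DEX went to −0.065 (repeated quantile normalization) and −0.062 (hybridization controls) and ranged from −0.058 to 0.068 without 1 array in turn. In mp against the controls it went to −0.081 and −0.304 and ranged from −0.032 to 0.094 in the same settings, and against GR-bdl with DEX it went to −0.016 and −0.242. In mp against the controls, IAA18 went to −0.005 (hybridization controls), and without 1 array in turn IAA30 ranged from −0.174 to 0.006 and IAA29 from −0.369 to 0.051. IAA31 against GR-bdl with DEX went to 0.017 (median centring) and ranged from −0.058 to 0.031 without 1 array in turn. With the replicate number as a block, 559, 9276 and 9045 probe sets and 2, 2 and 5 members were called, and no call of a member changed.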

Other observations

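The genes next to the members in RefSeq order were read as well, the nearest on each side with a probe set paired with 1 gene, a rule added after seeing the data. After DEX, where 2.27% of all probe sets were called, the neighbours differed by −0.58 to 0.44 and were not called. The neighbours of IAA29, AT4G32270 and AT4G32290, differed by −0.13 ± 0.21 and −0.58 ± 0.17, beside −4.24 for IAA29. AT3G62110, next to IAA30, also differed by −0.58 ± 0.15 after DEX (limma adjusted p = 0.112) and was higher in mp than in GR-bdl with DEX by 0.64 ± 0.15.

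In mp some neighbours differed strongly from the controls. HYH, the next gene after IAA31 and a homologue of the light response factor HY5, stood at 3.16 in the controls, 2.74 in GR-bdl with DEX and 7.01 in mp, an increase of 3.85 ± 0.13 against the controls, while IAA31 stayed at the low end. AT2G47010, the nearest measured gene after IAA20, with 2 protein-coding genes between them, rose by 4.62 ± 0.20, and the nearest before it, AT2G46940, differed by −0.08 ± 0.10. The gene just before IAA34, AT1G15040, has 2 probe sets that disagree. One fell from 8.07 to 3.03 in mp (−5.04 ± 0.19), opposite to IAA34, and the other lay at the low end throughout. AT1G15060, just after IAA34, differed by 0.18 ± 0.18.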
